A study of Mus musculus with 2 samples.

Results

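Claudins and the proteins that sit with them in tight junctions were examined in airway cells with and without Gprc5a, a G protein-coupled receptor with no known ligand that retinoic acid induces. The cells were mouse tracheal epithelial cells in culture. The 10 genes were a named list of claudins (Cldn1, Cldn3, Cldn4, Cldn7, Cldn8, Cldn12 and Cldn23), occludin (Ocln), the scaffold ZO-1 (Tjp1) and the adhesion molecule JAM-A (F11r). All 10 were measured, each by 1 probe set, among 14860 genes with a probe set that carried exactly 1 gene symbol. The study had 2 samples: cells labelled Gprc5a+/+ and cells labelled Gprc5a−/−, each on 1 Affymetrix whole-transcript array. In both, the cells came from mice aged 3 weeks, of C57 BL/6 × 129sv background, and the growing cultures received no treatment beyond a serum-free keratinocyte medium that held bovine pituitary extract at 50 µg/ml and epidermal growth factor at 5 ng/ml. The labels do not say how many mice gave the cells or how many cultures were pooled.

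Tight junctions seal the space between neighbouring epithelial cells near their apical surface. Claudins are small proteins that span the membrane several times and polymerise into the strands of the junction, and the claudins present decide which ions can pass. Occludin and JAM-A lie in or beside the strands, and ZO-1 ties them to the actin cytoskeleton by binding the C-terminal tails of most claudins. In the airway this barrier separates the mucus and its microbes from the tissue, and basal cells, the progenitors that keratinocyte medium favours, form part of the layer below it.

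Of the 10 genes, Cldn7 differed by 2-fold or more between the samples and was higher in the knockout. The other 9 differed by less than 2-fold, with Cldn1 higher and Cldn12 lower in the knockout at the ends of their range. Among all 14860 genes, 3.34% were at least 2-fold higher and 2.11% at least 2-fold lower in the knockout. Every value is a single measurement on the log2 scale, after the authors' normalization by RMA, so no difference has a replicate error, a test or a p-value. In bulk samples, fewer cells of a type and less RNA per cell cannot be told apart.

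The promoter windows of Cldn7, Cldn1 and Cldn4 are shown because these genes span the pattern: a large difference, a moderate one and almost none. They are RefSeq windows of assembly GRCm38.p6, running from 250 bases before a transcript start to 50 bases after it, printed 5′ to 3′ on the gene's strand. Cldn7 has 2 annotated starts. Capitals mark CACCTG or its reverse complement CAGGTG, a hexamer that repressors of the Snail and ZEB families are known to bind, a choice of motif that rests on background knowledge and not on these data.
Cldn7, first start, chr11:69964529-69964828, plus strand: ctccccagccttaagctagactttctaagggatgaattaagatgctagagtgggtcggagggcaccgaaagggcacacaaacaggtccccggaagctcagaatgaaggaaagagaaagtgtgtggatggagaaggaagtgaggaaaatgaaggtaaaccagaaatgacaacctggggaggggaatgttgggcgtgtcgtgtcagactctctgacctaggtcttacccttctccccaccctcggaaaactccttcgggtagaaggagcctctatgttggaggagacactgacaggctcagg
Cldn7, second start, chr11:69965171-69965470, plus strand: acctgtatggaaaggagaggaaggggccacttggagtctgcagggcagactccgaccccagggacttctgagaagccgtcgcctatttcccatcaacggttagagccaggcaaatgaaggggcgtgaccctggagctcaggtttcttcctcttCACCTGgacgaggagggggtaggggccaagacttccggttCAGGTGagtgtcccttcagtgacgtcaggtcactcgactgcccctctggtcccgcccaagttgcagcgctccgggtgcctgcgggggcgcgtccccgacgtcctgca
Cldn1, chr16:26371790-26372089, minus strand: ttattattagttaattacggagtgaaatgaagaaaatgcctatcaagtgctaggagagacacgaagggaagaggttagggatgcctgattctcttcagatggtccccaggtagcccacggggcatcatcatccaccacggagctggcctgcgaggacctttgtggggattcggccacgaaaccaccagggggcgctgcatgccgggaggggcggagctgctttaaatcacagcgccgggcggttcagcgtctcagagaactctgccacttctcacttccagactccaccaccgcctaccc
Cldn4, chr5:134946885-134947184, minus strand: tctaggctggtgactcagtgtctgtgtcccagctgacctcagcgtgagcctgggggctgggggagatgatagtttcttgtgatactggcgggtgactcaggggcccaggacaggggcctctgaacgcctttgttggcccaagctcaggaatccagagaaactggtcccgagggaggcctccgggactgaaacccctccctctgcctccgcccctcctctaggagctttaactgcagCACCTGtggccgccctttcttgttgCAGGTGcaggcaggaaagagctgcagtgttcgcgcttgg

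The second Cldn7 window held the hexamer at 2 places, whose first bases lay at -97 and -57 from the start, while the first window held none. The Cldn4 window held it at -14 and at 12, counted so that the first transcribed base is 1. The Cldn1 window held none. The table had windows for 8 of the 10 genes, all but Cldn8 and Cldn23. Of these 8, 5 (Cldn3, Cldn4, Cldn7, F11r and Ocln) had the hexamer in at least 1 window, against 22.6% of all 27025 genes in the table. A gene with several windows has more places for a match. The 8 genes had 12 windows and the 27025 genes 32851, of which 20.2% held the hexamer. Neither AACNGGTT, a sequence bound by Grainyhead-like factors, nor the TATA box TATAAA occurred on either strand in the windows of these 8 genes, and 2.35% and 15.7% of all genes had them. The motifs were searched on both strands, and a match describes letters in a window and not a bound site. Whether the hexamer has a part in the difference of any of these genes was not tested.

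The targeted gene checked the labels. Gprc5a was at 9.49 in wild-type cells and 4.05 in knockout cells, 43.3-fold lower. Olfactory and vomeronasal receptor genes, 799 in all, were taken to show where unexpressed genes lie, and the 95th percentile of their values was 5.05. The knockout value of Gprc5a lay below that level, and with it raised to the level the gene was 21.6-fold lower. A level filter was set at 6.90, the median over both samples of all single-symbol probe sets, and a gene was counted at 2-fold if the larger of its values was above it. The filter left 7783 genes. Of these, 4.56% were at least 2-fold higher and 2.85% at least 2-fold lower in the knockout sample.

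Cldn7 encodes a claudin that is known to bind the adhesion molecule EpCAM and, unlike most claudins, to occur also along the lateral membrane. Its log2 value was 5.66 in wild-type cells and 8.19 in knockout cells. The difference, knockout minus wild type, was 2.54 on the log2 scale, or 5.80-fold. The wild-type value lay above the background level of 5.05 and below the level filter, so Cldn7 passed the filter by its knockout value alone. A gene that passes in this way has to be higher in the knockout sample. Among the 7783 genes above the filter, 0.951% had a difference at least as high.

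**Figure D1:**
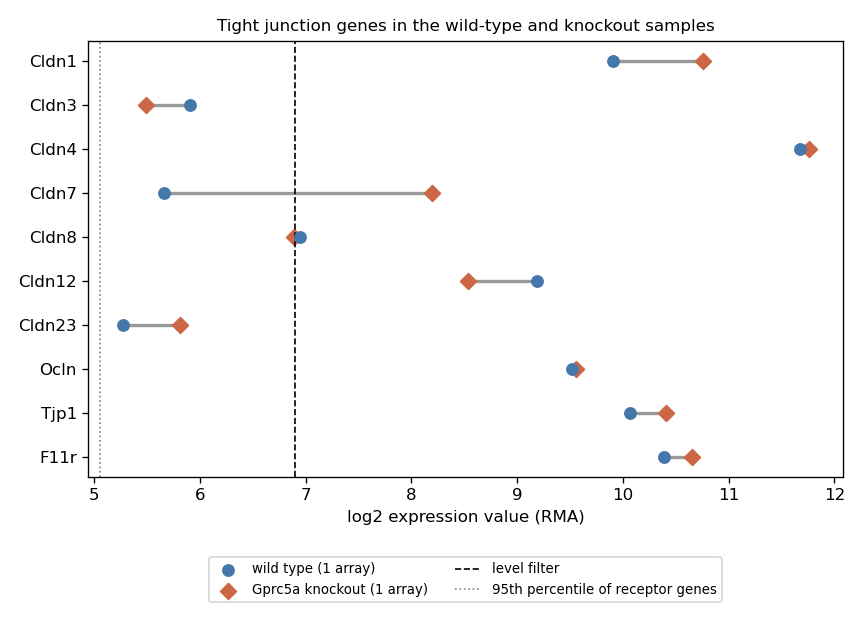
Log2 expression values (horizontal axis) of the 10 tight junction genes, 1 row a gene, with a circle for the wild-type array and a diamond for the knockout array. Dashed and dotted lines mark the level filter of 6.90 and the receptor background of 5.05. The long bar of Cldn7, from 5.66 to 8.19, crosses the filter, and the bars of the other 9 genes are shorter than 1 log2 unit.

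Of the 8 tight junction genes above the level filter, 1 (Cldn7) was at least 2-fold higher and 0 were at least 2-fold lower in the knockout sample, beside the 4.56% and 2.85% of all genes above the filter. Cldn3 and Cldn23 did not pass the filter in either sample. A count of 1 gene says nothing of the group beyond that gene. Where both values had to exceed the filter, Cldn7 and Cldn8 dropped out and 0 of the remaining 6 genes reached 2-fold, beside 2.14% higher and 1.43% lower among the 7118 genes that passed this stricter filter. The median difference of all 10 genes was 0.17 on the log2 scale, beside -0.03 over all 14860 genes and 0.02 over the 7783 above the level filter. The knockout value was the higher one for 7 of the 10 genes. It was the higher one for 46% of all 14860 genes, those below the filter included. That share was larger among the genes above the filter, whose median difference was positive, and 8 of the 10 genes passed the filter.

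Cldn1 and Cldn4 are sealing claudins. Mice without Cldn1 are known to lose water through the skin, which shows its part in stratified epithelium, and Cldn4 is known to limit the passage of sodium. Cldn1 was at 9.90 in wild-type cells and 10.76 in knockout cells, a difference of 0.86 or 1.81-fold. A difference this high was reached by 6.12% of the genes above the filter. Cldn4 was at 11.68 and 11.76, a difference of 0.08 or 1.06-fold, which 43.5% of those genes matched or exceeded. Cldn1 thus lay toward the upper end of all differences, and Cldn4 near their middle.

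Cldn3 is also a sealing claudin, and Cldn8 is known in mouse kidney as the partner that brings Cldn4 to the junction. Cldn3 was at 5.90 in wild-type cells and 5.49 in knockout cells, a difference of -0.41 below the level filter. Cldn8 was at 6.94 and 6.89, a difference of -0.05. Its wild-type value exceeded the filter by a small margin and its knockout value did not. No detection calls came with the values, so whether these low values stand for expression cannot be read from them.

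Cldn12 and Cldn23 belong to the less typical claudins, and Cldn12 is known to lack the C-terminal motif by which other claudins bind ZO-1. Cldn12 was at 9.19 in wild-type cells and 8.54 in knockout cells, a difference of -0.66 or 1.58-fold lower. Among the genes above the filter, 6.24% were lower by as much. Cldn23 was at 5.27 and 5.82, a difference of 0.55 with both values below the filter. At a threshold of 1.5-fold, Cldn7 and Cldn1 counted as higher (2 of 8, beside 11% of all genes above the filter) and Cldn12 as lower (1 of 8, beside 7.54%).

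The 3 genes that are not claudins were above the filter in both samples and differed little. Ocln was at 9.52 in wild-type cells and 9.56 in knockout cells, a difference of 0.03. Tjp1, the scaffold gene, was at 10.07 and 10.41, a difference of 0.34 or 1.27-fold. F11r, which encodes an immunoglobulin-like adhesion molecule and in the mouse takes part in setting up the junction, was at 10.39 and 10.66, a difference of 0.27 or 1.20-fold. Differences at least as high as those of Tjp1 and F11r were found for 20.9% and 26.1% of the genes above the filter, and for Ocln for 48.2%. None of the 3 stood at an end of the distribution.

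**Figure D2:**
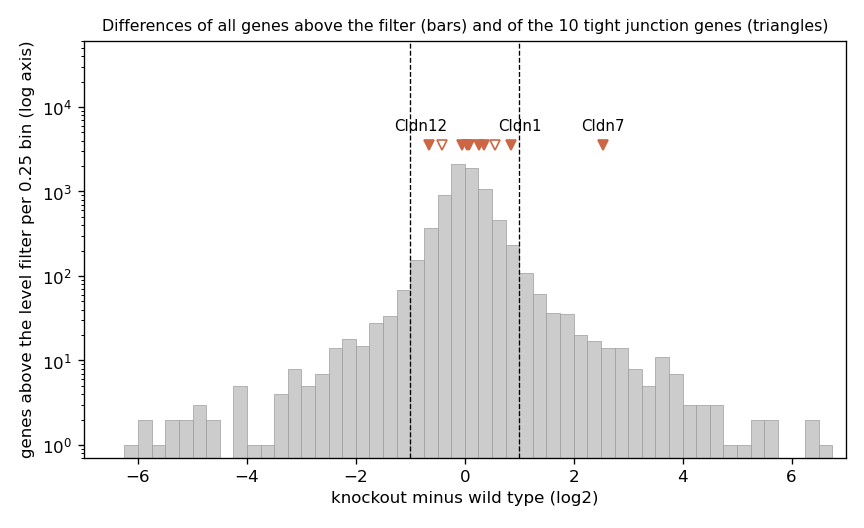
Number of genes above the level filter (vertical log axis) by their difference, knockout minus wild type on the log2 scale, in bins of 0.25, with a triangle for each of the 10 tight junction genes (open where the gene did not pass the filter). Dashed lines mark 2-fold in either direction, and Cldn7 at 2.54 is the triangle outside them.

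Several claudin genes lie side by side in the genome. By RefSeq gene order, 0 protein-coding genes separate Cldn3 from Cldn4 on chromosome 5, Cldn1 from Cldn16 on chromosome 16, or Cldn8 from Cldn17 on chromosome 16. Cldn4 differed by 0.08 and Cldn3 by -0.41. Cldn16, a claudin of kidney magnesium uptake, was at 4.25 and 4.09, below background in both samples, beside its neighbour Cldn1 with a difference of 0.86. Cldn17 was below background as well, at 3.04 and 3.05, beside Cldn8 with a difference of -0.05.

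The genes around Cldn7 on chromosome 11, 3 measured genes on either side, were looked at after its value was known. Their differences ran from -0.18 for Ybx2 to 0.63 for 2810408A11Rik, and none reached 2-fold. The nearest measured genes were Slc2a4 (the insulin-responsive glucose transporter) at -0.02 on one side and Elp5, of the Elongator complex, at 0.04 on the other. By distance of the pair of log2 values, the genes most like Cldn7 among all 14860 were Gstt3, a glutathione transferase gene (distance 0.21), Pid1 (0.27) and Dock11 (0.29). They were 7.10-fold, 4.81-fold and 4.54-fold higher in the knockout sample. With 2 samples such a likeness says only that the pairs of values are close.

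Other claudins were mostly at background. Of 16 further claudin genes looked for, 12 were measured here by a single-symbol probe set, and 8 of these 12 were below the background level in both samples. Cldn6, a claudin best known from embryonic epithelium, was the single one above the level filter, at 10.55 in wild-type cells and 10.85 in knockout cells, a difference of 0.31. Cldn5 of endothelium and Cldn18 of alveolar and gastric epithelium were below background in both samples. Cldn2, which forms channels for cations and water, was at 5.64 in wild-type cells and 3.09 in knockout cells. The difference of -2.55 was below the level filter, and with the knockout value raised to the background level it was -0.58. The 12 genes had a median difference of -0.15.

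Beyond the 10 genes, 8 lists covered other claudins, tricellular and MARVEL proteins, JAM-related proteins, plaque scaffolds, polarity complexes, claudin partners, adherens junctions and transcriptional regulators. They held 82 further genes, of which 68 were measured and 46 passed the level filter. At 2-fold or more, 3 of the 46 (6.52%) were higher and 2 (4.35%) lower in the knockout sample, beside 4.56% and 2.85% of all genes above the filter. The median difference of the 68 genes was 0.01. Without a level filter Cldn2 joined the lower genes (3 of 68, beside 2.11% of all genes), and the higher ones stayed at 3 (beside 3.34%).

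Among plaque scaffolds, Mpdz, whose product MUPP1 carries many PDZ domains that bind claudins and JAM-A, was at 8.03 in wild-type cells and 9.28 in knockout cells, 2.38-fold higher. Magi1, another PDZ scaffold, was 1.83-fold higher. Cgnl1, which encodes paracingulin, was at 6.42 in wild-type cells and 7.17 in knockout cells, 1.68-fold higher. It passed the level filter by its knockout value alone, so it had to be higher in the knockout sample. Tjp3, the gene of ZO-3, was at 6.04 in both samples. The 8 measured scaffold genes, Tjp1 included, had a median difference of 0.26. Of the 7 above the filter, 1 was at least 2-fold higher and 0 lower, beside 4.56% and 2.85% of all genes above it.

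Of the 4 measured tricellular and MARVEL genes, all above the filter, 1 (Ildr1) was at least 2-fold lower and 0 were higher. Of all genes above the filter, 2.85% were lower and 4.56% higher by as much. A count of 1 gene says nothing of the list, whose median difference was -0.23. Ildr1, which encodes angulin-2 at the corners where cells meet, was at 9.26 in wild-type cells and 8.23 in knockout cells, 2.04-fold lower. With the median difference of all genes subtracted, its difference was -0.999 and fell just short of 2-fold. Marveld2, tricellulin, differed by -0.29 and Lsr, angulin-1, by -0.17, while Marveld3 differed by 0.52. Of the JAM-related genes, Cxadr, the coxsackievirus and adenovirus receptor, was above the filter and differed by 0.31, and Jam2 and Jam3 were below background in both samples.

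**Figure D3:**
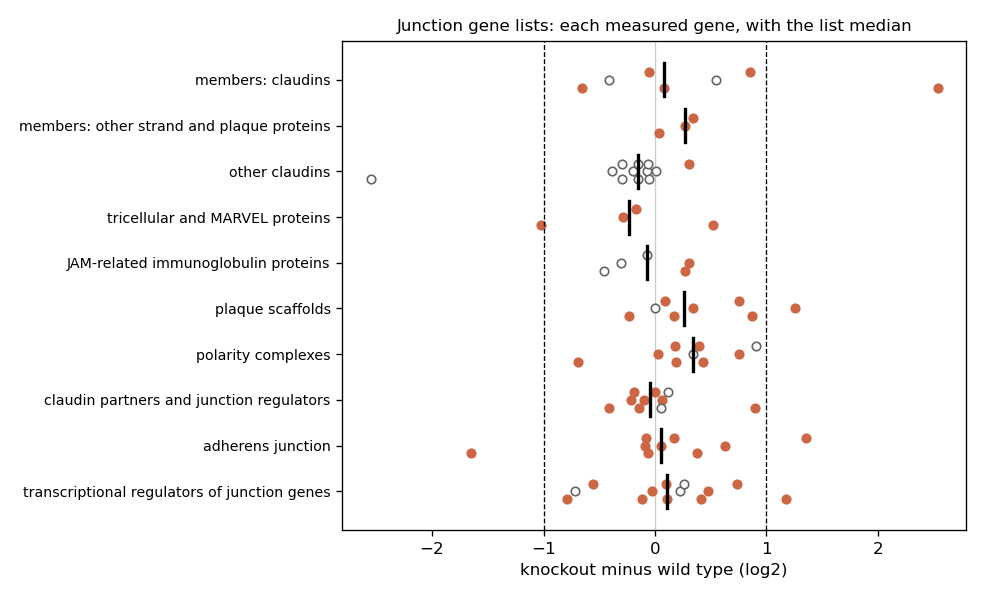
Difference of each measured gene, knockout minus wild type on the log2 scale (horizontal axis), for the 10 tight junction genes in their 2 groups and for the 8 further junction lists. Filled points passed the level filter, open points did not, black bars are list medians and dashed lines mark 2-fold. Cldn7 at 2.54 lies farthest to the right and Cldn2, below the filter, farthest to the left at -2.55.

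Polarity genes, whose products place the junction at the apical border, had the higher value in the knockout sample for 8 of 9 measured members. The share over all genes, those below the filter included, was 46%. It was larger among genes above the filter, whose median difference was 0.02 against -0.03 over all genes. Some of the 8 differences were close to 0, such as 0.03 for Crb3. The median difference of the 9 was 0.34, and 2 of them did not pass the filter. Of the 7 above it, 0 reached 2-fold, beside 4.56% higher and 2.85% lower among all genes above it. Prkci, an atypical protein kinase C, was at 10.12 in wild-type cells and 10.88 in knockout cells, 1.69-fold higher. Patj, a PDZ protein of the Crumbs complex, was at 9.16 and 8.47, 1.62-fold lower. Pard6b was 1.35-fold and Llgl2 1.32-fold higher.

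Epcam, whose product binds claudin-7, was at 12.30 in wild-type cells and 11.89 in knockout cells, a difference of -0.41. Its difference and that of Cldn7 thus had opposite signs. Prss8, the membrane protease prostasin, was 1.87-fold higher in the knockout sample, while Spint2, an inhibitor of such proteases, and Rock1, a kinase that tenses the actin ring, differed by -0.19 and -0.22. None of the 8 partner and regulator genes above the filter reached 2-fold, beside 4.56% higher and 2.85% lower among all genes above it.

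In the adherens junction, which lies just below the tight junction, Cdh1 (E-cadherin) was at 12.19 in wild-type cells and 12.25 in knockout cells, and Ctnnb1 (beta-catenin) at 11.74 and 11.65. Among the nectins, adhesion molecules of the same junction, Nectin1 was above the filter in both samples, at 9.72 and 9.89. Nectin4 was at 6.71 and 8.06, 2.56-fold higher in the knockout, and passed the level filter by its knockout value alone. Nectin3 was at 7.47 and 5.82, 3.15-fold lower, and passed by its wild-type value alone. The directions of Nectin4 and Nectin3 were thus fixed by how they passed. Of the 9 measured genes of this list, all above the filter, 1 was at least 2-fold higher and 1 at least 2-fold lower. The shares of all genes above the filter were 4.56% and 2.85%. Plekha7 was 1.55-fold and Cdh3 (P-cadherin) 1.30-fold higher.

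Among 13 transcriptional regulators of junction genes, Elf3, an ETS factor of epithelia, was at 7.28 in wild-type cells and 8.45 in knockout cells. It was 2.26-fold higher and the only one of the 10 above the filter to reach 2-fold. Of all genes above the filter, 4.56% were at least 2-fold higher and 2.85% at least 2-fold lower. Ehf, a relative of Elf3, was 1.66-fold higher. Ovol1 was 1.73-fold lower and passed by its wild-type value alone. The Grainyhead-like genes differed in direction: Grhl3 was 1.47-fold lower and Grhl2 1.39-fold higher. Grhl1, at 6.58 and 5.87, did not pass the filter. Of the factors that bind the hexamer printed above, Snai2 was at 11.24 and 11.35 and Zeb2 at 6.86 and 6.96. Snai1 and Zeb1 did not pass the filter. The list had a median difference of 0.10.

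Markers of cell types were set beside these values. All 8 basal cell markers were measured, 7 of them above the filter, with the log2 of their summed linear values at 14.75 in wild-type cells and 14.62 in knockout cells. Their differences ran from -0.39 for Krt17 to 0.69 for Krt15, both keratins of basal cells, and none reached 2-fold. Among all genes above the filter, 4.56% were at least 2-fold higher and 2.85% at least 2-fold lower, so few would be looked for among 7. Krt15 was at 6.91 and 7.60, 1.61-fold higher in knockout cells, and Krt17 at 12.90 and 12.51. Trp63, the basal cell transcription factor, was at 10.95 and 10.76, the integrin gene Itga6 at 11.66 and 11.48, and the basal keratin gene Krt5 at 12.71 and 12.62. In the luminal, secretory and ciliated lists, 1 gene of each was above the filter. All 3 passed by their knockout values alone, as Cldn7 did, so they had to be higher in the knockout sample and their shared direction says nothing. Krt18, a keratin of simple epithelium, was at 5.15 and 11.61 (88.1-fold), Cyp2f2 of club cells at 6.48 and 9.63 (8.86-fold) and Foxj1 of ciliated cells at 6.22 and 8.97 (6.70-fold).

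In knockout cells the sum of each of these lists came mostly from that 1 gene. The log2 of the summed values went from 6.65 in wild-type cells to 11.63 in knockout cells for 3 measured luminal markers, from 7.13 to 9.71 for 5 secretory markers and from 7.54 to 9.28 for 5 ciliated markers. The other luminal and secretory markers were at or near background: Krt19, a further luminal keratin, was at 4.98 and 4.65, and Scgb1a1, the defining secretoglobin of club cells, at 2.35 and 2.30. Of the ciliated markers, Dnah5, an axonemal dynein, was at 3.69 and 3.63, Ccdc39 at 2.66 and 2.79 and Rsph1 at 4.35 and 5.01. Tppp3, at 6.17 and 6.15, lay above background and below the filter in both samples. The part of such cells in the difference of Cldn7 was not tested.

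**Figure D4:**
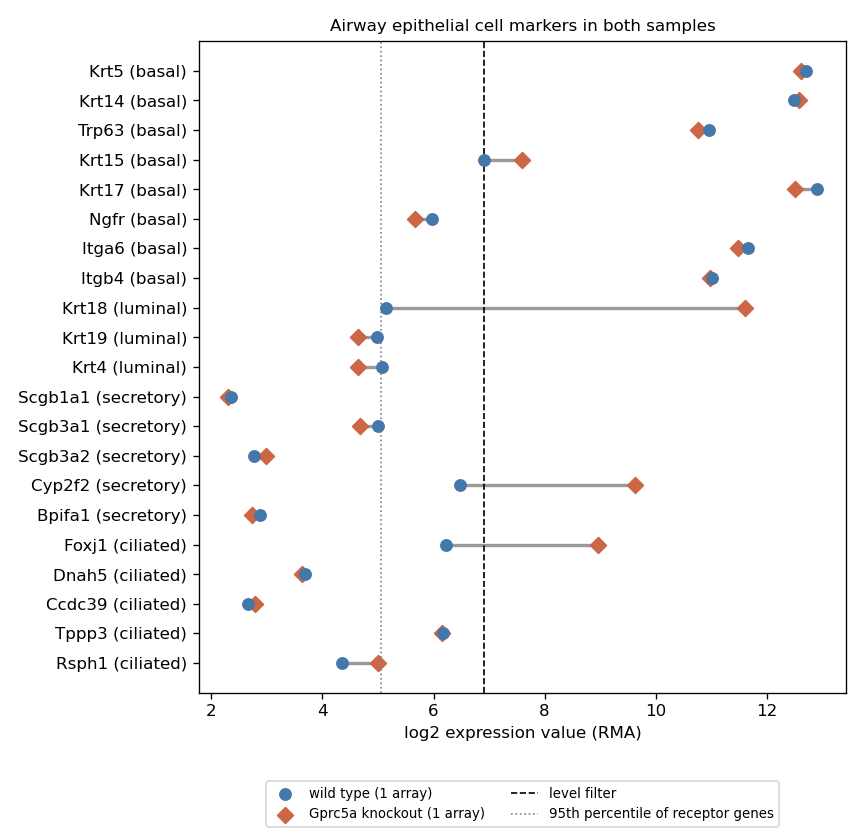
Log2 expression values (horizontal axis) of the measured basal, luminal, secretory and ciliated cell markers in the wild-type array (circles) and the knockout array (diamonds), with the level filter of 6.90 (dashed) and the receptor background of 5.05 (dotted). Krt18, Cyp2f2 and Foxj1 have long bars toward the knockout value, while the other markers of their lists lie below the filter in both samples.

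Markers of fibroblasts, endothelium and immune cells were dim. None of the 7 fibroblast, 6 endothelial and 5 immune cell markers measured was above the filter. The values closest to it were those of Cd68, of macrophages, at 6.63 and 6.67, and of the collagen genes Col1a1 at 6.15 and 6.09 and Col1a2 at 5.98 and 5.74. The T cell gene Cd3e was at 5.38 and 5.09, and the endothelial genes Esam and Pecam1 were at 5.10 and 4.80 and at 4.87 and 4.84. Of 6 markers of alveolar epithelium, 2 were above the filter. Aqp5, a water channel also found in airway, was at 8.38 and 7.05, 2.51-fold lower in the knockout. Hopx was at 7.19 and 6.42 and passed by its wild-type value alone. The defining surfactant gene Sftpc was below background in both.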

How the data were processed

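Total RNA (250 ng) of 1 wild-type and 1 Gprc5a knockout sample was labelled for whole-transcript arrays, per the labels' protocols. The deposited values are log2 expression per probe set, which the authors made with RMA in Affymetrix Expression Console, per the submitters' processing notes. Versions, build, filters and the arrays normalized together stand in none of the sources used here. RMA commonly makes the arrays share 1 distribution, which hides a global change in RNA content, and it understates large ratios. The sorted columns differ by at most 0.17.

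Of 23332 probe sets, 14996 carried exactly 1 platform gene symbol, 1019 several and 7317 none here. By Entrez ID, 14941 matched a RefSeq table of GRCm38.p6, which changed 0 symbols. The 135 genes with several probe sets were taken from the one with the highest mean. Differences, folds, counts and medians were computed in Python 3.11.15 with pandas 2.3.3, and the scripts were tested on simulated data. With 1 array per genotype there was no test, and precision is limited by having 1 array each.

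The 10 genes, the receptor background and all lists were chosen with earlier results of these data known. Beside the 10 genes and Gprc5a, the text names, per list, genes chosen by a rule: up to 4 above the level filter by absolute difference, or the 2 brightest where none passed, and the 3 genes most like Cldn7. Other genes were named after their values were seen. Alternatives varied the probe set, low values, normalization, centring, filter and threshold. Protein sequences were not used here.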

Additional observations from a re-analysis of the deposited data

How the results depend on the processing

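The sign of all 10 tight junction genes was the same under the 4 settings tried for single genes (averaged probe sets, values raised to the background percentile, the columns quantile-normalized again, the median difference subtracted), with a largest move of 0.11 on the log2 scale. The first 2 of these settings could not move any of the 10 genes, since each has 1 probe set and all their values exceed the background percentile, so only the last 2 bear on them. Cldn7 lay between 2.48 and 2.56, and the median of the 10 genes between 0.17 and 0.20. The count of genes at least 2-fold higher was 1 except for 0 with both values above the level filter and 2 at 1.5-fold, and the count lower was 0 except for 1 at 1.5-fold. In the further junction lists, a check added after seeing the data, the count higher was 9 and the count lower 4 of 46 at 1.5-fold, beside 11% and 7.54% of all genes above the filter. With both values above the filter the count higher went from 3 to 2, without Nectin4, and the count lower from 2 to 1, without Nectin3. Among the 7118 genes that passed this stricter filter, 2.14% were at least 2-fold higher and 1.43% at least 2-fold lower. The count lower was also 1 with the median subtracted, which puts Ildr1 at -0.999. Taking the level filter over probe sets with any gene symbol (6.76), also added after seeing the data, changed none of these counts. Values near background are limited: Gprc5a moved to -4.43 and Cldn2 to -0.58 when low values were raised. No paired analysis was possible because each genotype has 1 sample.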
